A study of Homo sapiens with 3 samples.

Results

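The 10 genes described here belong to the NRF2 antioxidant response and were picked by symbol as known genes of the pathway, with earlier results of these data known: the regulators NFE2L2 and KEAP1, and the effector genes GCLC, GCLM, TXNRD1, SRXN1, NQO1, AKR1B10, HMOX1 and OSGIN1. All 10 were found among the 25270 gene symbols of the data. NFE2L2 encodes NRF2, a transcription factor that KEAP1 holds in the cytoplasm and passes to a CUL3 ubiquitin ligase for degradation. When oxidants or electrophiles modify KEAP1, NRF2 accumulates, enters the nucleus, pairs with a small MAF protein and binds antioxidant response elements in its target genes. In liver cells the response supplies glutathione, reduces thiols and quinones, and breaks down heme.

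RNA was sequenced from HepG2, a human hepatocellular carcinoma cell line (HepG2/wild, untreated), from a HepG2 line selected by more than 5 months of metformin (HepG2/metR), and from the selected line after 24 h in 40 mM oxamate, which blocks lactate dehydrogenase (HepG2/metR+oxamate). HepG2/metR is a line that produces much lactate, and the study used it to ask which genes follow lactate. Whether metformin was present at harvest, and whether the libraries came from separate cultures, is not given in the sources used here. There was 1 library per condition (n = 1), so no difference has a replicate check and no p-value, SD or SE is given. Levels are given as FPKM, fragments per length of transcript and per size of library. Changes are differences of log2(FPKM + 1), which understate the change of low genes. The FPKM values summed to between 473773 and 562382 per library, and the number of reads is unknown.

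The HepG2/metR libraries stood apart from the parental library in cell type markers. All 10 hepatocyte markers examined were lower by 2-fold or more in HepG2/metR, 8 of them were below 1 FPKM in both HepG2/metR libraries, and their summed level was 20090 FPKM in HepG2/wild, 13.6 in HepG2/metR and 11.0 in HepG2/metR+oxamate. TTR was listed at 0 in both HepG2/metR libraries, and APOA1 in the untreated one. Of 8 mesenchymal markers kept by the filter on low values, VIM, SPARC, AXL and THY1 were higher by 2-fold or more in HepG2/metR and FN1 was lower. The summed level of the 10 markers listed was 1581, 2511 and 1930 FPKM. Most of the HepG2/wild sum was FN1, listed at 1503, 45.7 and 93.7 FPKM, and most of the other sums was VIM, at 1.23, 1576 and 1140. These shifts moved with every difference between HepG2/metR and HepG2/wild given below, and their part in those differences was not tested. A change of the culture, a selected subset of cells and an effect of metformin cannot be told apart in these libraries, nor can fewer cells with a transcript and less of it per cell.

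In HepG2/metR, 7 of the 10 genes were at least 2-fold lower than in HepG2/wild, among them NFE2L2, KEAP1, NQO1 and AKR1B10, while TXNRD1 was 4.87-fold higher and GCLM and SRXN1 stayed under the threshold. Over the 12210 genes with a mean of at least 1 FPKM, 17.6% were at least 2-fold lower and 16.6% at least 2-fold higher. The 10 genes had a median log2 change of -1.50, and all genes kept one of 0.02. AKR1B10 passed the filter on low values only through its parental level, so its difference was built in, whereas the other 9 genes were at 1 FPKM or more in every library. Of those 9, 6 were lower and 1 higher, and among all genes at 1 FPKM or more in every library 13% were lower and 9.7% higher. With oxamate, 1 of the 10 genes, OSGIN1, was at least 1.5-fold higher and 0 were at least 1.5-fold lower, against 4.3% and 3.82% of all genes kept. The thresholds, 2-fold and 1.5-fold, are folds the study states, applied here in both directions to the log2(FPKM + 1) differences. Its methods give 1.5-fold for the decrease with oxamate, whereas its results name a 2-fold cut-off alone.

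**Figure D1:**
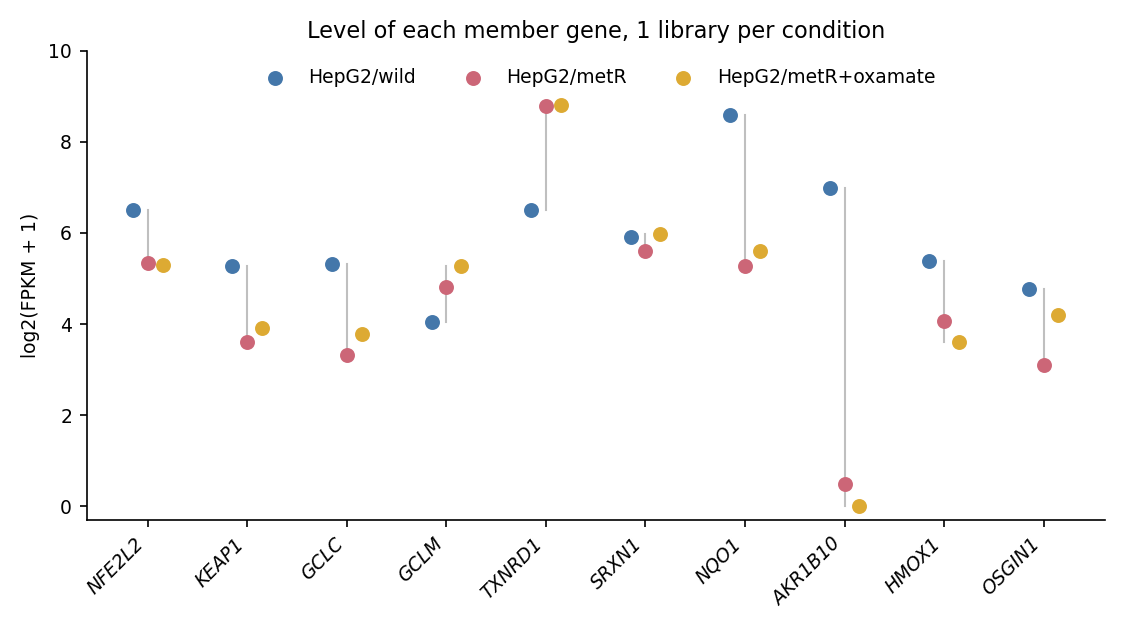
Level of each of the 10 genes on the log2(FPKM + 1) axis, with 1 point per library and condition and a grey line from the lowest to the highest point. NQO1 and AKR1B10 are highest in HepG2/wild, at 384 and 126 FPKM, TXNRD1 is highest in the HepG2/metR libraries, at 438 and 449 FPKM, and the points for SRXN1 lie closest together.

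The start regions of the 10 genes were searched for the core of the antioxidant response element, TGACNNNGC, on both strands. Each window runs from 250 bases before to 50 after each annotated start, in RefSeq (GRCh38.p14), and the search used no expression value. Of the 10 genes, 8 had a window, and HMOX1 and AKR1B10 had none. The core was in 4 of the 11 windows of these genes, against 13.3% of 35116 windows of all genes, and in 3 of the 8 genes, against 16.1% of gene symbols. The genes were KEAP1, GCLM and TXNRD1. The sequences below show the core in capitals with 10 bases on each side, read along the gene's own strand, because they show that the core stood both in KEAP1, which was lower in HepG2/metR, and in TXNRD1, which was higher. In KEAP1, at the downstream of its starts, the cores end 46 and 23 bases before the start. In GCLM the core ends 26 bases before the start, and in TXNRD1 91 bases before the upstream start and 94 before the downstream one.
KEAP1, chr19:10502807-10502835, minus strand: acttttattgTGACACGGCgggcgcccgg
KEAP1, chr19:10502784-10502812, minus strand: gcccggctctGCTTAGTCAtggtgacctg
GCLM, chr1:93909446-93909474, minus strand: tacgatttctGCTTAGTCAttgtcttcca
TXNRD1, chr12:104215670-104215698, plus strand: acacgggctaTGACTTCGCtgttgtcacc
TXNRD1, chr12:104286920-104286948, plus strand: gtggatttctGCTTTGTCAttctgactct
KEAP1 and GCLM hold the same core, TGACTAAGC, on the strand opposite to the gene. A further match at the upstream start of TXNRD1 reaches the start base itself and is not printed. Every core printed in capitals, except that at 91 bases from the start of TXNRD1, touches an exon that GENCODE 29 annotates for the same gene. A match is a description of letters and no evidence of binding, and the windows of NQO1, GCLC, SRXN1, OSGIN1 and NFE2L2 without a match say nothing of elements farther away.

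The regulators were both lower in HepG2/metR. NFE2L2, the gene of NRF2, was listed at 90.4 FPKM in HepG2/wild, 39.3 in HepG2/metR and 38.3 in HepG2/metR+oxamate. The log2 change in HepG2/metR was -1.18, and the level with oxamate lay next to the untreated one, with a difference of -0.04 whose sign turned under one scaling. KEAP1, the substrate adaptor that targets NRF2, was listed at 37.7, 11.1 and 14.0 FPKM in the same order of libraries. Its log2 change was -1.67 in HepG2/metR and 0.30 with oxamate, the latter under the threshold. KEAP1 thus stood below NFE2L2 in every library, and the ratio of KEAP1 to NFE2L2 was 0.417 in HepG2/wild, 0.283 in HepG2/metR and 0.365 in HepG2/metR+oxamate. A ratio within a library does not depend on the scaling between libraries. The locus of NFE2L2 overlaps the gene AGPS on the opposite strand, which was listed at 25.7, 16.5 and 17.2 FPKM, and whether the reads were counted by strand is not given in the sources used here.

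The subunits of glutamate-cysteine ligase, which makes the first and rate-limiting step of glutathione synthesis, differed in opposite directions in HepG2/metR. GCLC, the catalytic subunit, was listed at 38.9 FPKM in HepG2/wild, 9.002 in HepG2/metR and 12.8 in HepG2/metR+oxamate. GCLM, the modifier subunit that raises the affinity of the enzyme for its substrate, was listed at 15.5, 27.1 and 37.7 FPKM. GCLC was therefore 4.32-fold lower in HepG2/metR, and GCLM 1.74-fold higher, which is short of the 2-fold threshold. The ratio of GCLM to GCLC was 0.400 in HepG2/wild, 3.01 in HepG2/metR and 2.94 in HepG2/metR+oxamate. Between HepG2/wild and HepG2/metR the log2 of this ratio differed by 2.92, and with oxamate by -0.03. The GCLM-to-GCLC balance of the selected cells was thus nearly the same with and without oxamate, although both genes were higher in the treated library, GCLC by 0.47 and GCLM by 0.46 on the log2 scale. Neither passed the 1.5-fold threshold, which is 0.585 on this scale. When the libraries were brought to equal totals, both did, at 0.63, or 0.46 and 0.47 relative to the median of all genes under that scaling.

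Thioredoxin reductase 1, the selenoprotein that keeps cytosolic thioredoxin reduced, was the gene at the highest level of the 10 in the selected cells. TXNRD1 was listed at 90.1 FPKM in HepG2/wild, 438 in HepG2/metR and 449 in HepG2/metR+oxamate. Both HepG2/metR libraries were high and close to each other, with log2 changes of 2.27 from HepG2/wild and 0.03 with oxamate. Among the 12210 genes kept TXNRD1 stood at percentile 92.3 in HepG2/wild and at 98.6 and 98.8 in the other libraries. The gene EID3, which lies inside the TXNRD1 locus on the same strand, was listed at 0.326, 3.98 and 2.59 FPKM. SRXN1, the sulfiredoxin that restores peroxiredoxins after overoxidation, was listed at 59.4, 47.8 and 61.8 FPKM, and its log2 changes of -0.31 and 0.36 passed no threshold. The highest SRXN1 level was 1.29 times the lowest, the narrowest range of the 10 genes. A protein-coding gene, AL121758.1, overlaps the SRXN1 locus on the same strand and is not among the gene symbols of the data. The ratio of SRXN1 to TXNRD1 was 0.659 in HepG2/wild, 0.109 in HepG2/metR and 0.138 in HepG2/metR+oxamate.

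The genes for the reduction of quinones and carbonyls showed the largest differences among the 10. NQO1, the quinone oxidoreductase that reduces quinones by a transfer of an electron pair, was listed at 384 FPKM in HepG2/wild, 37.7 in HepG2/metR and 47.9 in HepG2/metR+oxamate. It was 10.2-fold lower in HepG2/metR, a log2 change of -3.32, and went from percentile 98.3 of the genes kept to 82.4. With oxamate NQO1 differed by 0.34, under the threshold, and its difference from HepG2/wild was -2.98 on the log2 scale. AKR1B10, an aldo-keto reductase of retinal and other aldehydes that is often high in liver cancer, was listed at 126 FPKM in HepG2/wild, 0.392 in HepG2/metR and 0 in HepG2/metR+oxamate. The log2 change in HepG2/metR was -6.51, and no fold is given for the oxamate library, where the gene was listed at 0. AKR1B15, a near-identical neighbour that could share reads with AKR1B10, was listed at 0.38 FPKM in HepG2/wild and at 0 in both HepG2/metR libraries. In HepG2/wild NQO1 stood above TXNRD1, and in both HepG2/metR libraries TXNRD1 stood above NQO1, with a TXNRD1-to-NQO1 ratio of 0.234, 11.6 and 9.37.

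HMOX1 and OSGIN1 went in opposite directions with oxamate after both had been lower in HepG2/metR. HMOX1, the inducible heme oxygenase, was listed at 41.0 FPKM in HepG2/wild, 15.8 in HepG2/metR and 11.2 in HepG2/metR+oxamate. Its log2 changes were -1.32 in HepG2/metR and -0.47 with oxamate, and the latter, 1.42-fold, was short of the threshold. OSGIN1, an oxidative stress-induced growth inhibitor, was listed at 26.4, 7.58 and 17.3 FPKM. It was 3.49-fold lower in HepG2/metR and 2.29-fold higher with oxamate, with log2 changes of -1.68 and 1.10. OSGIN1 with oxamate was still below its parental level, at 0.655 of it. Each of the 5 scaling and pseudocount alternatives left OSGIN1 past the threshold with oxamate, at 1.07 to 1.26. The OSGIN1 locus overlaps a protein-coding gene on the same strand, AC009119.2, which is not among the gene symbols of the data. Whether its reads add to the OSGIN1 level was not tested.

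**Figure D2:**
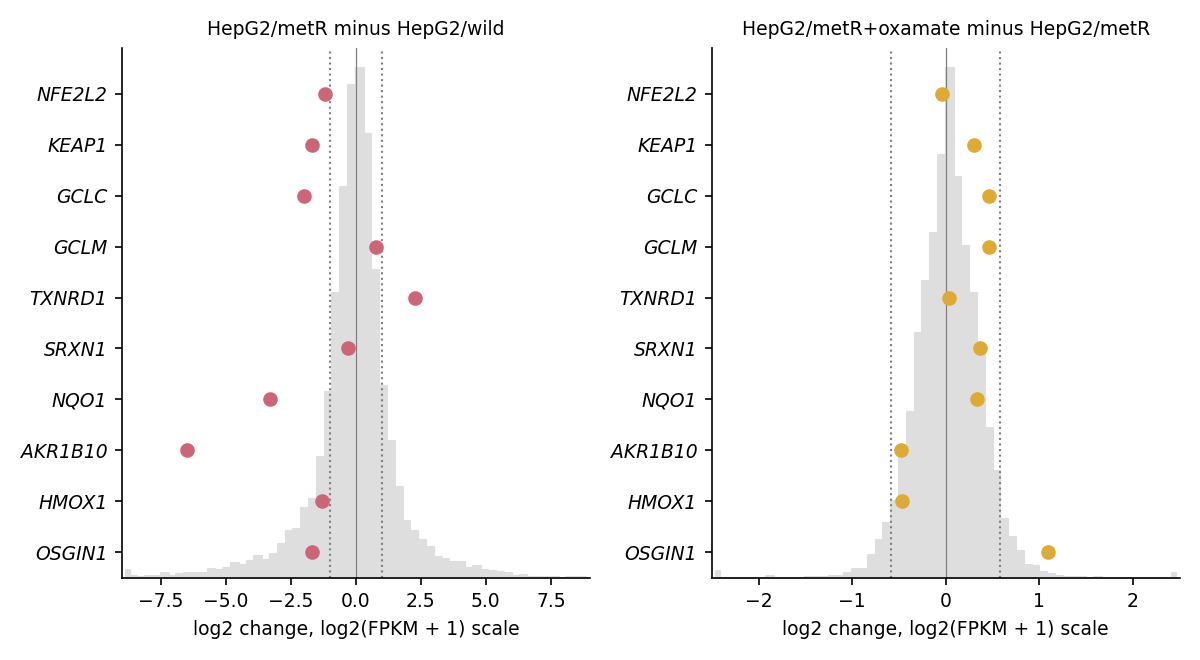
Log2 change of each of the 10 genes (points) in HepG2/metR against HepG2/wild on the left and with oxamate on the right. The grey shape is the distribution of all 12210 genes kept, scaled to its highest bin with values beyond the axis placed in the end bins, and the dotted lines mark 2-fold and 1.5-fold. On the left 7 points lie beyond the lower line and TXNRD1 beyond the upper one, and on the right OSGIN1 alone lies beyond a line.

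The order of the libraries differed between the genes. KEAP1, GCLC, NQO1 and OSGIN1 were highest in HepG2/wild and lowest in HepG2/metR, with HepG2/metR+oxamate between them. NFE2L2, HMOX1 and AKR1B10 were highest in HepG2/wild and lowest with oxamate, and GCLM and TXNRD1 were lowest in HepG2/wild and highest with oxamate. SRXN1 was highest with oxamate and lowest in HepG2/metR. The untreated and treated HepG2/metR levels of NFE2L2 and TXNRD1 were 1.03-fold and 1.02-fold apart, and SRXN1 with oxamate was 1.04-fold above HepG2/wild, so their place in this order rests on differences that single libraries cannot resolve. The comparisons share the HepG2/metR library, and an error in it would move a gene in both. With oxamate the 10 genes had a median log2 change of 0.32, and all genes kept one of 0.02. Under equal totals the median of all genes was 0.17 and that of the 10 genes relative to it was 0.32. The same scaling put GCLC, GCLM and OSGIN1 past the threshold and took the share of higher genes among all genes past it from 53.0% to 86.0%.

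The makeup of the summed effector level differed between HepG2/wild and both HepG2/metR libraries. The 8 effector genes summed to 782 FPKM in HepG2/wild, 584 in HepG2/metR and 637 in HepG2/metR+oxamate. In HepG2/wild NQO1 made up 49.2% of that sum, AKR1B10 16.1% and TXNRD1 11.5%. In HepG2/metR TXNRD1 made up 75.1%, SRXN1 8.19% and NQO1 6.45%, and in HepG2/metR+oxamate the shares were 70.4%, 9.7% and 7.51%. These shares do not depend on the scaling between libraries. GCLM went from 1.99% in HepG2/wild to 4.65% and 5.92% in the other libraries, and GCLC from 4.98% to 1.54% and 2.01%.

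**Figure D3:**
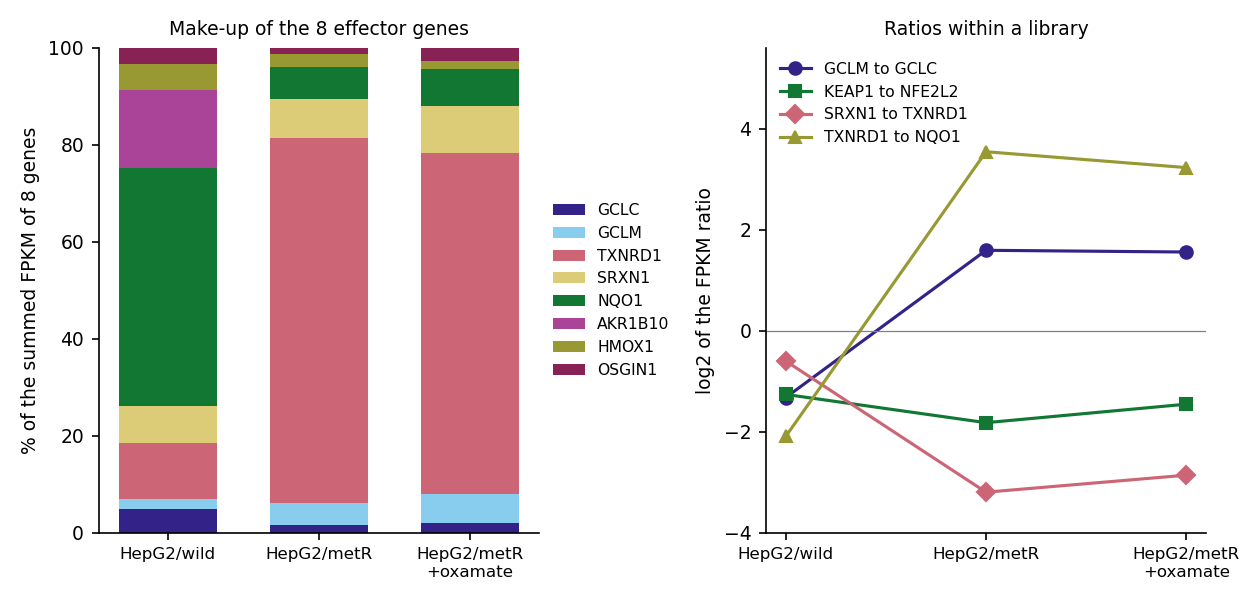
Share of each of the 8 effector genes in their summed FPKM, per library (left, stacked bars in %), and the log2 of 4 FPKM ratios within a library (right, 1 point per library joined by lines). NQO1 fills 49.2% of the bar in HepG2/wild, and TXNRD1 75.1% and 70.4% in the HepG2/metR libraries, while the GCLM-to-GCLC ratio crosses 0 on the log2 axis between HepG2/wild and HepG2/metR.

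The patterns were compared with those of 12109 other genes kept, by the root mean square difference of the log2 values, each centred on the gene's own mean over the 3 libraries. The pattern of NFE2L2 was common, with 1054 genes within 0.2, among the nearest LOC646719 and SLC18B1. For KEAP1 536 genes lay within 0.2, led by INSR, TRAPPC6B and PRTG. For HMOX1 the number was 298, led by CRIP1, ANKRD39 and EMC9, and for GCLC it was 285, led by FURIN, IQSEC1 and POLR3E. TXNRD1 had 283 genes within 0.2, led by CCDC8, SRPX and MYLK, and NQO1 had 148, led by ACADSB, QPRT and SORL1. CCDC8 was listed at 0.03, 3.97 and 4.02 FPKM, SRPX at 0.25, 5.13 and 5.26, and SORL1 at 11, 0.28 and 0.55. CCDC8 and SRPX passed the filter on low values only through the HepG2/metR libraries, and SORL1 only through HepG2/wild. The 1 added before the log2 flattens such low values, so likeness on this scale is not likeness of fold. OSGIN1 had 20, led by FILIP1L at 0.045, CAMK2D and AQP11. AKR1B10 had the fewest, 10, led by CES1 at 0.095, SERPIND1 and GPX3. CES1 was listed at 119, 0.21 and 0.02 FPKM, SERPIND1 at 131, 0.50 and 0.23, and GPX3 at 108, 0.13 and 0. Like AKR1B10, these genes passed the filter only through HepG2/wild, so their likeness is a shared fall to the floor. PRTG and AQP11 were also below 1 FPKM in HepG2/metR, at 0.85 and 0.77. FILIP1L was listed at 20.9, 5.63 and 12.6 FPKM, beside 26.4, 7.58 and 17.3 for OSGIN1. These likenesses rest on 3 libraries.

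A wider list of 65 genes, chosen as regulators, targets or genes of the same functions, was read beside the 10, and 61 of them were kept. Whether each gene is an NRF2 target was not examined, so shares of this list are not shares of NRF2 targets. In HepG2/metR 18 of the 61 were at least 2-fold lower (29.5%) and 10 at least 2-fold higher (16.4%), against 17.6% and 16.6% of all genes kept. Of the 61, 12 passed the filter on low values only through the libraries where they were high, so that their difference was built in, and all 12 are among these counts. The other 49, at 1 FPKM or more in every library, held 11 lower genes (22.4%) and 5 higher ones (10.2%), against 13% and 9.7% of all such genes. With oxamate 3 of the 61 were at least 1.5-fold higher (4.92%) and 2 lower (3.28%), shares near the 4.3% and 3.82% of all genes kept. Among 11 further regulators, NFE2L3, a relative of NRF2, and MAFF, a small MAF partner, were higher in HepG2/metR by 2-fold or more, and 0 were lower. NFE2L3 was listed at 7.54, 51.0 and 45.8 FPKM. CUL3, the scaffold of the ligase that KEAP1 serves, was listed at 15.04, 15.3 and 14.1 FPKM, and BACH1, the repressor of HMOX1, at 7.53, 9.78 and 12.4. With oxamate MAFK, another small MAF partner, was higher and RBX1, the RING subunit of the same ligase, lower, with log2 changes of 0.69 and -0.61. Under equal totals RBX1 was at -0.44, short of the threshold.

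The glutathione list held differences in both directions. Of its 12 genes, 5 were lower in HepG2/metR by 2-fold or more, namely GPX2, GGT1, GPX4, GSR and MGST1, and GSTP1 and CHAC1 were higher. Among all genes kept 17.6% were lower and 16.6% higher, and with oxamate 3.82% were at least 1.5-fold lower and 4.3% higher. GPX2, GGT1, GSTP1 and CHAC1 passed the filter only through the libraries where they were high. The other 8 genes, at 1 FPKM or more in every library, held 3 lower and 0 higher, against 13% and 9.7% of all such genes. GPX2, a glutathione peroxidase, was listed at 397 FPKM in HepG2/wild and at 0.12 and 0.04 in the HepG2/metR libraries, whereas GSTP1, a glutathione transferase, was listed at 0.39, 218 and 178. CHAC1, which degrades glutathione, was listed at 0.03, 21.6 and 3.70 FPKM, and was the 1 gene of the list past the threshold with oxamate. SLC7A11, the cystine transporter that supplies GCLC with its substrate, was listed at 11.1, 22.8 and 17.2 FPKM, with log2(FPKM + 1) differences of 0.98 and -0.39. The first was just short of 2-fold, and 4 of 5 alternatives of pseudocount and scaling put it past, at 1.03 to 1.11. None of the 6 thioredoxin genes besides TXNRD1 passed 2-fold in HepG2/metR: TXN itself, the substrate of TXNRD1, was listed at 404, 491 and 346 FPKM. TXNIP, which binds and inhibits thioredoxin, was higher with oxamate by 0.69.

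NQO1 and AKR1B10 were read beside 10 kept genes of quinone and carbonyl reduction, of which 5 were lower and 1, CBR3, higher by 2-fold or more in HepG2/metR. Of these 6, AKR1C1, AKR1C2, AKR1C3 and CBR3 passed the filter only through the libraries where they were high. Among all genes kept 17.6% were lower and 16.6% higher. The list held 6 genes at 1 FPKM or more in every library, 2 of them lower and 0 higher, against 13% and 9.7% of all such genes. AKR1C1, AKR1C2 and AKR1C3 were listed at 699, 246 and 162 FPKM in HepG2/wild and at 1.36 FPKM or less in both HepG2/metR libraries. These genes share sequence, so the split of reads between them is uncertain. The other lower genes were UGDH and EPHX1, and AKR1B1, a paralog of AKR1B10, was listed at 80.7, 76.9 and 64.6 FPKM. HMOX1 was read beside 8 genes of heme and iron, all at 1 FPKM or more in every library. FTH1, FTL and ABCB6 were lower in HepG2/metR by 2-fold or more, and BLVRB was higher, at 24.6, 60.0 and 56.0 FPKM. BLVRA, also of this list, was listed at 62.4, 31.8 and 28.0 FPKM, with a log2 change of -0.95 in HepG2/metR, short of 2-fold. Reads of the ferritin genes FTH1 and FTL can be shared with their many pseudogenes. HMOX2, the constitutive heme oxygenase, was listed at 33.0, 28.2 and 23.9 FPKM, above HMOX1 in both HepG2/metR libraries and below it in HepG2/wild.

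Of the 6 genes of NADPH supply, which feeds TXNRD1, NQO1 and glutathione reductase, ME1 was at least 2-fold higher in HepG2/metR and IDH1 at least 2-fold lower. Among all genes kept 16.6% were higher and 17.6% lower by that much. ME1, which passed the filter only through the HepG2/metR libraries, was listed at 0 in HepG2/wild and at 7.97 and 9.10 FPKM in the other libraries, and IDH1 at 374, 43.5 and 43.4. All 5 efflux transporter genes passed 2-fold in HepG2/metR, with ABCC1, ABCC2, ABCC3 and ABCG2 lower and ABCC4 higher. Of the 3 at 1 FPKM or more in every library, 2 were lower and 1 higher, against 13% and 9.7% of all such genes. ABCC3 and ABCG2 passed the filter only through HepG2/wild, and ABCC1, at -1.03, was short of 2-fold under equal totals (-0.96) and upper-quartile scaling (-0.89). ABCC2 was also past the oxamate threshold, at 104, 17.6 and 32.2 FPKM. Its order of libraries, highest in HepG2/wild and lowest in HepG2/metR, was not particular to it. KEAP1, GCLC, NQO1 and OSGIN1 had it, and so did GSR, GPX4, UGDH, EPHX1 and others among the pathway genes. The HepG2/metR libraries were 1.04-fold apart for GSR and EPHX1, which single libraries cannot resolve. The share of all genes with this order was not counted. TRIM16 and TRIM16L, which share sequence so that their reads are hard to divide, were higher in HepG2/metR, at 1.74, 8.26 and 10.5 FPKM and at 0.81, 11.5 and 16.4 FPKM. TRIM16L was among the genes that passed the filter only where they were high.

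**Figure D4:**
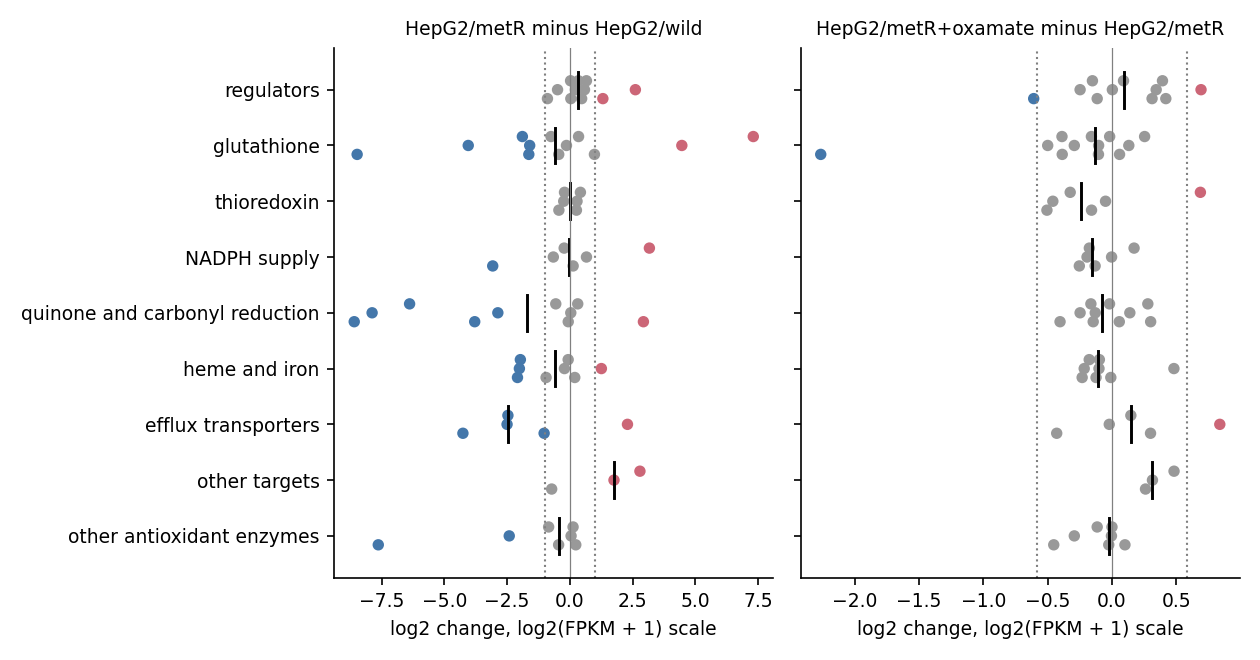
Log2 change of each kept gene of the wider pathway lists and of 7 other antioxidant enzymes (points) in HepG2/metR against HepG2/wild on the left and with oxamate on the right, by list, with the list median as a black bar and dotted lines at 2-fold and 1.5-fold. Red and blue points lie past the upper and lower threshold. On the left 6 of the 9 lists have genes past the lower line, with AKR1C1 and GPX2 farthest to the left, and on the right CHAC1, at -2.27, lies farthest from 0.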

How the data were processed

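RNA-seq of 3 libraries, 1 per condition, was examined. The authors deposited log2 values per gene symbol and library. No header names the unit. It was read as log2(FPKM + 1), because undoing that transform gave numbers with 6 or fewer significant digits for 100% of values above 1. The submitters' processing notes name STAR 2.5.1b, FastQC 0.11.5, Cufflinks 2.2.1 and hg19, and the annotation and strand setting are not given in the sources used here. Read depth is unknown, so no counting interval is given.

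The values were not rescaled. Genes averaging 1 FPKM or more over the libraries (12210) were kept. Differences of log2 values were set against 2-fold (HepG2/metR) and 1.5-fold (oxamate), with no test, and the calculation was tested on simulated data. Members and gene lists were chosen with earlier results of these data known. The text names all members, up to 3 genes per list and comparison with the largest change at a mean of 5 FPKM or more, and the 3 genes most like each member past a threshold, except a few genes that are not reported here. Genes behind small counts, partner genes such as CUL3, BACH1, AKR1B1, AKR1B15, BLVRA and BLVRB, and the TXNRD1-to-NQO1 ratio were chosen after their values were seen. RefSeq promoter windows (GRCh38.p14) were joined by symbol alone. Alternatives covered the pseudocount (0.1, none), scaling (equal totals, upper quartile, median of ratios), the filter (5 FPKM, none) and exchanged thresholds. Python 3.11, numpy 2.4.6, pandas 2.3.3 and matplotlib 3.10.9 were used.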

Additional observations from a re-analysis of the deposited data

How the results depend on the processing

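With 1 library per condition, no replicate could be left out. No paired analysis was possible because each group holds a single library. Scaling shifts all genes well above the floor by nearly the same amount. The scale factors lay between 0.907 and 1.08, so no scaling could reverse a change past its threshold or move one beyond 0.2. The counts of members below therefore show the effect of the pseudocount and are no measure of how firm a change is. Of 99 recomputed changes of single members, 0 turned the direction of a change past its threshold and 96 moved by at most 0.2 on the log2 scale. The others were AKR1B10, at -8.00 in HepG2/metR with a pseudocount of 0.1 and -8.33 with none, against -6.51, and at -2.30 with oxamate with a pseudocount of 0.1, which made it the 1 member past the lower threshold. For members, 1.5-fold in place of 2-fold gave 2 higher in HepG2/metR, GCLM being added, and equal totals gave 3 higher with oxamate. NFE2L2 with oxamate differed by 0.13 under equal totals.

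Over all genes kept, HepG2/metR against HepG2/wild gave 1249 higher and 1428 lower at a mean FPKM of at least 5, and 3262 and 3301 at 1.5-fold. With oxamate, 1018 genes were higher with a pseudocount of 0.1, 1111 with none, 1184 under equal totals (192 lower), 271 at a mean FPKM of at least 5 (403 lower, against 525 higher and 466 lower at 1 FPKM) and 66 at 2-fold (64 lower). The median of all genes was 0.15 in HepG2/metR under upper-quartile scaling. Of 126 recomputed list medians 115 moved by at most 0.2, and of 16 recomputed ratios all did. The ratios were recomputed with other pseudocounts alone, because scaling leaves them unchanged. Recomputing single pathway genes, and counting apart those at 1 FPKM or more in every library, was added after the data were seen. With oxamate, equal totals also put SLC48A1 (0.63) and TRIM16L (0.65) past 1.5-fold. The cause of these moves was not tested.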

Other observations

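Antioxidant enzymes left out of the wider pathway list were examined as well, and whether any of them is an NRF2 target was not. Of 7 such genes, SOD2 and PRDX2 were lower in HepG2/metR than in HepG2/wild by 2-fold or more, 0 were higher by that much, and 0 passed 1.5-fold with oxamate. Among all genes kept 17.6% were lower and 16.6% higher in HepG2/metR, and 3.82% lower and 4.3% higher with oxamate. PRDX2 passed the filter on low values only through HepG2/wild. SOD2, the mitochondrial superoxide dismutase, was listed at 127 FPKM in HepG2/wild, 22.9 in HepG2/metR and 22.9 in HepG2/metR+oxamate, whereas SOD1, the cytosolic enzyme, was listed at 387, 422 and 344. PRDX2, an abundant cytosolic peroxiredoxin, was listed at 198 FPKM in HepG2/wild and at 0 in both HepG2/metR libraries. PRDX5 was listed at 206, 212 and 209 FPKM, and PRDX4 at 143, 168 and 155. CAT, the peroxisomal catalase, was listed at 41.7, 22.7 and 24.4 FPKM. Outside small RNA genes, 34 genes at 50 FPKM or more in HepG2/wild were listed at exactly 0 in HepG2/metR, PRDX2 among them, and whether such a 0 is a failed estimate was not tested.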
